A study of Mus musculus with 16 samples.

Results

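The mitosis and G2/M genes are 57 genes whose products carry a cell from the end of DNA replication through chromosome segregation and cytokinesis. They were chosen by name, from cyclins and mitotic kinases to condensin subunits, and are 57 of the 54193 genes to which the transcripts of the libraries were summed. All 57 passed the filter on low counts and are among the 14838 genes tested. The RNA came from mouse brain microvascular endothelial cells (mBMEC), cultured from mice aged 8 to 10 weeks that carry floxed Pdcd10 (Ccm3) alleles and the Cdh5(PAC)-CreERT2 transgene, whose Cre is driven by an endothelial promoter and acts once 4-hydroxytamoxifen (4-OHT) is given. Ccm3 is a gene whose loss in brain endothelium gives cerebral cavernous malformations. WT cells carried the same alleles without 4-OHT and KO cells received 4-OHT, so exposure to 4-OHT and loss of Ccm3 cannot be told apart. Both were left untreated or were given the beta-adrenergic blocker propranolol at 10 µM (WT+P, KO+P) or the mTORC1 inhibitor rapamycin at 100 nM (WT+R, KO+R) for 24 h. WT, KO, KO+P and KO+R had 3 libraries each, WT+P and WT+R had 2 each, 16 in all, and a replicate number is called a culture below, since libraries with the same number deviated together from their group means. Every culture was a primary one selected with puromycin before 4-OHT was added.

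Entry into mitosis is set by cyclin-dependent kinase 1 (CDK1) bound to cyclins A and B, which is switched on by CDC25 phosphatases and opposed again when the anaphase-promoting complex (APC/C) destroys the cyclins. Most genes of this program are silent in resting cells and rise together late in the cycle, when the activators B-MYB and FOXM1 replace the DREAM repressor at cell cycle genes homology regions (CHR) and NF-Y sits on CCAAT boxes. Endothelial cells of adult brain vessels are mostly quiescent, whereas cultured mBMEC divide in serum and growth supplement, so the level of these transcripts varies with how many cells are cycling. In RNA from a whole culture, fewer cycling cells and less mitotic mRNA per cycling cell cannot be told apart.

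The start regions of some members are shown because they hold the letters through which the program is known to be switched. RefSeq promoters (mouse build GRCm38.p6, 250 bases before to 50 bases after the start) were given for 46 of the 57 genes. The stretches below run from 120 bases before to 30 bases after the start, 5′ to 3′ on the strand of the gene. Capitals mark TTTGAA (CHR), TTCGAA (a CHR variant) and CCAAT on either strand. They show Cdk1, Ccnb1, Plk1, Cdc20, Ube2c, Top2a, Kif11, Cenpf and Racgap1, whose values are described further on, and Pttg1 as a member that did not follow the others.
Cdk1 (chr10:69352883-69353032, minus strand): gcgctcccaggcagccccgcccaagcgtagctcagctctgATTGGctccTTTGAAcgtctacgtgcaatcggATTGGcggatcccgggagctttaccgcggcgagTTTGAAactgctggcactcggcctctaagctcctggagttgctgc
Ccnb1 (chr13:100786457-100786606, minus strand): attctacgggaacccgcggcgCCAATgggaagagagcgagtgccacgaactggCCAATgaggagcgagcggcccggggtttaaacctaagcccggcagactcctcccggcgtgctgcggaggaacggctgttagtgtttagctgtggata
Plk1 (chr7:122159315-122159464, plus strand): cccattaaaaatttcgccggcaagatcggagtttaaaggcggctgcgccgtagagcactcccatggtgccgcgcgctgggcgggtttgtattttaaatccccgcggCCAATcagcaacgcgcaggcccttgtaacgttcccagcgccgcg
Cdc20 (chr4:118437314-118437463, minus strand): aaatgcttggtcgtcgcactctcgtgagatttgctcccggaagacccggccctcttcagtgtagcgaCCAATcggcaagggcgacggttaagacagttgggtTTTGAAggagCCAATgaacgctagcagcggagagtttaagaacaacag
Ube2c (chr2:164769809-164769958, plus strand): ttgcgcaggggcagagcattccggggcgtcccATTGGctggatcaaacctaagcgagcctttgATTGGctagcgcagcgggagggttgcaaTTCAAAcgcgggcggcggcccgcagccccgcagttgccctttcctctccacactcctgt
Top2a (chr11:99024160-99024309, minus strand): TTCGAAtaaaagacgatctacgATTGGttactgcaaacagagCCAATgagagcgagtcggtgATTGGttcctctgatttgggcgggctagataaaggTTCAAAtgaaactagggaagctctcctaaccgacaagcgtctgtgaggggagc
Kif11 (chr19:37376262-37376411, plus strand): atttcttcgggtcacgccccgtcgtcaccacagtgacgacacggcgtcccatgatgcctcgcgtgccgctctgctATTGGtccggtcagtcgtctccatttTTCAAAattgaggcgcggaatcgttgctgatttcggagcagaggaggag
Cenpf (chr1:189688057-189688206, minus strand): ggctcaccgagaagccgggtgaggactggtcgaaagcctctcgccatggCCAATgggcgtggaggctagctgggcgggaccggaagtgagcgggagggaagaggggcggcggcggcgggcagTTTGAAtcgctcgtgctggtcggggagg
Racgap1 (chr15:99651627-99651776, minus strand): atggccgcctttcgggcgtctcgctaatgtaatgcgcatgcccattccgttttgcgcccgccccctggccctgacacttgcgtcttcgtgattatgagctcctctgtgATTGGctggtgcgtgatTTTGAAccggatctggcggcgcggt
Pttg1 (chr11:43425952-43426101, minus strand): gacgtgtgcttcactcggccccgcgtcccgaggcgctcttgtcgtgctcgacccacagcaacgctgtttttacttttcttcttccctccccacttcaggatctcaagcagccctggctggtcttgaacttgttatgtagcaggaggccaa

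In Ube2c, Kif11, Top2a, Cdc20 and Cdk1 a CHR lay close to the start, with a CCAAT upstream of it. Ccnb1 showed a pair of CCAAT boxes and no CHR in its window, the CHR of Plk1 lay outside the stretch shown, and Pttg1 held none of these letters. Over the whole windows, TTTGAA was found in 34 of the 46 members (73.9%) and in 20.2% of the 27025 genes with a promoter in the table. CCAAT was found in 35 members (76.1%) against 41.1% of all genes, and both motifs together in 30 members (65.2%) against 8.0%. At least 2 CCAAT boxes stood in 22 members (47.8%) and in 13.3% of all genes. The variant TTCGAA was rare, with 4 members (8.7%) against 1.8%. The E2F letters TTTCGCGC, TTTGGCGC, TTTCCCGC and TTTGCCGC, which mark genes switched on earlier, at the start of S phase, were found in 3 members (6.5%), in 2.6% of all genes and in 41.9% of the S phase genes with a promoter. All motifs were read on both strands, and a CHR overlapped a CCAAT in 1 of the 49 member windows. A match is a description of letters and not of a bound factor.

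**Figure D1:**
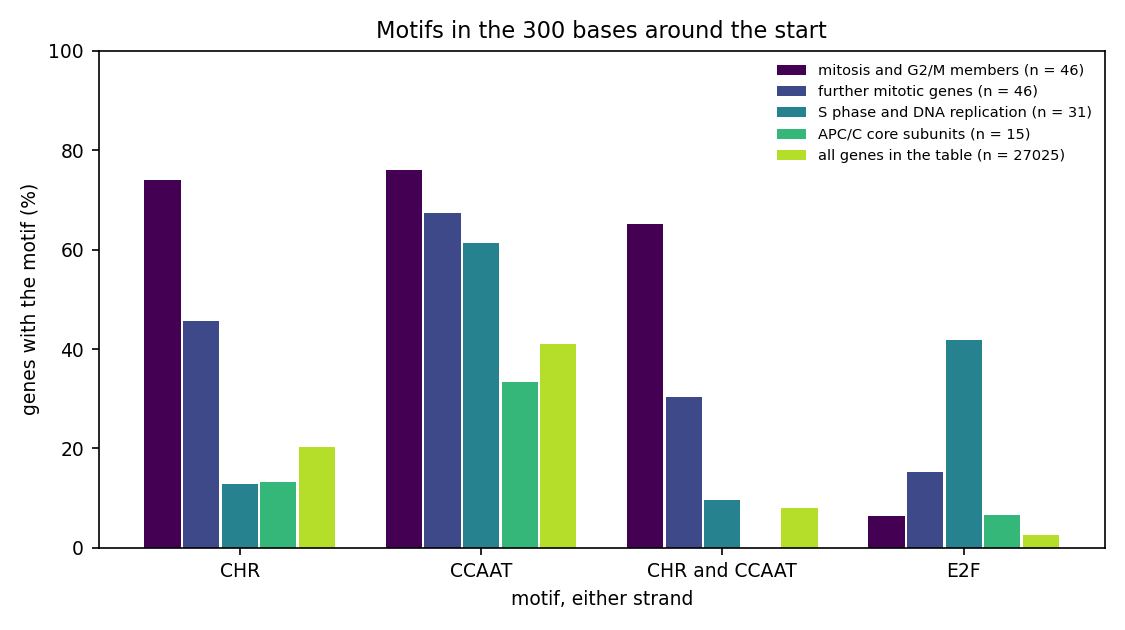
Share of genes (y axis, %) with each motif (x axis) in the 300 bases around the start, for the mitosis and G2/M members, 3 lists of other cell cycle genes and all genes in the RefSeq table. CHR was found in 73.9% of the members and in 20.2% of all genes, and the E2F letters in 41.9% of the S phase genes and 6.5% of the members.

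Depth ran from 18.83 to 26.2 M counts. Levels are given as CPM, counts relative to the library's total after scaling with TMM factors, in the order of cultures 1, 2 and 3. Pdcd10, the targeted gene, stood at 11.5, 31.2 and 47.0 CPM in WT and at 9.72, 11.0 and 9.73 CPM in KO, so the library labelled WT replicate 1 lay close to the KO libraries, whereas WT+P and WT+R of the same culture were at 60.8 and 52.0 CPM. Comparisons that rest on it are also given without it. The endothelial markers were high in every library, summing to between 7762 and 15780 CPM over 10 genes. Markers of fibroblasts summed to at most 202.0 CPM over 6 genes, those of neurons to at most 28.6 over 5, of microglia and macrophages to at most 26.1 over 7, of astrocytes to at most 7.46 over 5 and of oligodendrocytes to at most 2.04 over 5. The 8 mural markers reached 625.0 CPM in WT+R, nearly all of it from Acta2, while the defining pericyte gene Rgs5 was at most 1.69 CPM in any library.

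The summed level of the 57 genes differed widely between cultures and was lower with either drug. Untreated WT cells of culture 2 held 1543.8 CPM of these transcripts, against 356.3 CPM in culture 1 and 470.9 CPM in culture 3. KO cells held 689.9, 1599.7 and 1164.9 CPM in cultures 1, 2 and 3. With propranolol the sum was 190.0 and 990.4 CPM in WT+P and 196.7, 705.5 and 761.7 CPM in KO+P. With rapamycin it was 205.5 and 795.8 CPM in WT+R and 268.0, 768.8 and 587.0 CPM in KO+R. Culture 2 was the highest of the untreated libraries in both genotypes, and the treated libraries were below their untreated partner in every culture. For this reason libraries were compared within their culture.

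**Figure D2:**
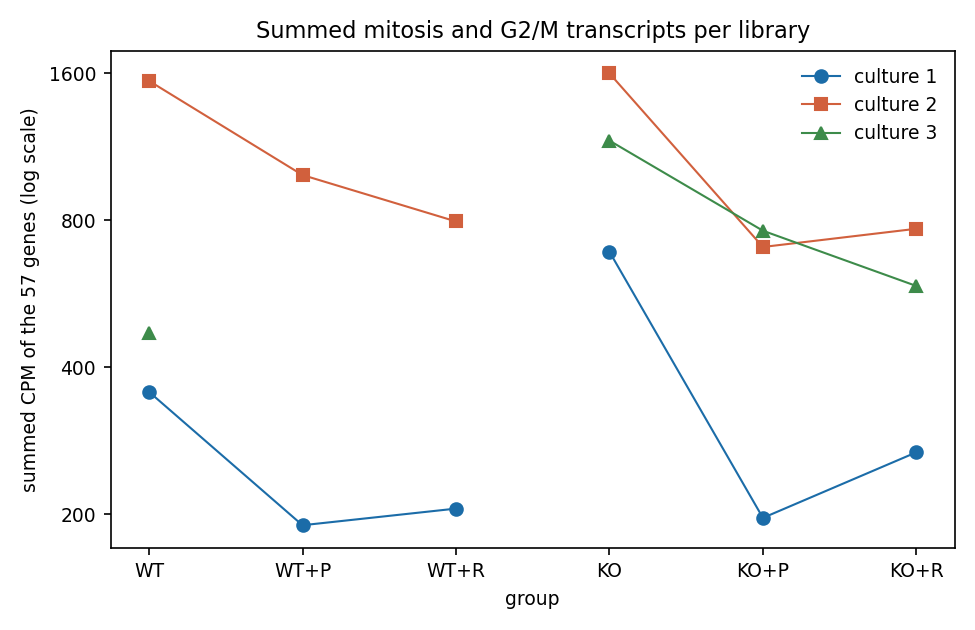
Summed CPM of the 57 genes (y axis, log scale) in each of the 16 libraries by group (x axis), with lines joining the libraries of 1 genotype and culture. Each treated library lies below its untreated partner, and KO culture 2 (1599.7 CPM) lies close to WT culture 2 (1543.8 CPM).

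The members moved together. The log2 level of each gene across the 16 libraries correlated with the summed level of the other 56 at a median Pearson r of 0.97, and 53 of the 57 exceeded 0.9. These libraries share cultures, so the values are a description. The lowest were Pttg1 at 0.39, Gtse1 at 0.69, Smc4 at 0.75 and Anln at 0.89. Per length, in TPM, which corrects counts for transcript length, averaged over the 16 libraries, Ube2c was the highest member at 47.5 TPM, followed by Cdk1 at 43.6, Gtse1 at 42.7 and Pttg1 at 42.3 TPM. The order differed between groups, since Gtse1 had the highest mean in WT, at 61.9 ± 19.5 TPM (SD, n = 3) against 56.2 ± 65.7 for Ube2c, and Ube2c in KO, at 93.4 ± 35.4 TPM against 55.2 ± 11.7 for Gtse1. Over all libraries, Cdc25c at 0.867 TPM and Cenpf at 0.656 TPM were the lowest.

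Among the cyclins, CDK1 and mitotic kinases, Cdk1, the kinase that drives mitosis, was at 7.04, 57.1 and 10.7 CPM in WT, 1.94 and 31.1 CPM in WT+P, 2.46 and 27.9 CPM in WT+R, 22.9, 49.8 and 36.6 CPM in KO, 4.33, 19.4 and 23 CPM in KO+P and 5.93, 21.3 and 15.4 CPM in KO+R. Ccnb1, its cyclin B1 partner, was at 3.08, 30.5 and 5.21 CPM in WT, 1.16 and 15.7 CPM in WT+P, 1.21 and 10.2 CPM in WT+R, 9.03, 28 and 17.6 CPM in KO, 2.16, 13.7 and 13 CPM in KO+P and 2.01, 11.5 and 6.95 CPM in KO+R. Plk1, polo-like kinase 1, which promotes entry and spindle formation, was at 2.58, 15.9 and 3.12 CPM in WT, 0.74 and 6.74 CPM in WT+P, 0.671 and 6.14 CPM in WT+R, 6.82, 14.9 and 10.2 CPM in KO, 0.625, 4.71 and 5.68 CPM in KO+P and 1.38, 5.21 and 3.83 CPM in KO+R. In all of them WT culture 2 and KO culture 2 stood at about the same level, and each treated library was below the untreated library of its culture, although the groups overlapped because of culture 2. Cdc25b, a phosphatase that starts CDK1 activation, was at 3.73, 14.2 and 3.32 CPM in WT, 3.38 and 10.9 CPM in WT+P, 1.7 and 6.87 CPM in WT+R, 7.59, 17.3 and 13.7 CPM in KO, 2.96, 9.63 and 11.2 CPM in KO+P and 3.12, 10.2 and 7.48 CPM in KO+R. Cdc25c, its partner at mitotic entry, was low, at 0.368, 2.76 and 0.082 CPM in WT, 0.0462 and 1.89 CPM in WT+P, 0.0895 and 0.988 CPM in WT+R, 0.736, 2.69 and 1.55 CPM in KO, 0.0416, 1.08 and 1.5 CPM in KO+P and 0.159, 0.984 and 0.49 CPM in KO+R, and 31.4% of its exonic bases are shared with other genes. Its lowest values, in WT+P and KO+P of culture 1, rest on 1 count each.

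Of the checkpoint and exit genes, Bub1, a checkpoint kinase at kinetochores, was at 2.02, 12.8 and 1.72 CPM in WT, 0.324 and 7.1 CPM in WT+P, 0.313 and 6.83 CPM in WT+R, 4.26, 14.8 and 8.7 CPM in KO, 0.416, 4.83 and 6.25 CPM in KO+P and 0.635, 7.14 and 5.08 CPM in KO+R. Cdc20, the activator of the APC/C that starts anaphase, was at 8.7, 44.6 and 8.37 CPM in WT, 4.67 and 27.1 CPM in WT+P, 4.25 and 23 CPM in WT+R, 17.4, 45.7 and 33.9 CPM in KO, 5, 21.6 and 21.3 CPM in KO+P and 9.27, 26.4 and 21.2 CPM in KO+R. Ube2c, the ubiquitin-conjugating enzyme that works with the APC/C, was at 8.6, 59.8 and 8.16 CPM in WT, 2.03 and 36.3 CPM in WT+P, 1.21 and 20.8 CPM in WT+R, 27.6, 57.1 and 43.6 CPM in KO, 3.33, 23.7 and 24.4 CPM in KO+P and 3.44, 17.1 and 13.7 CPM in KO+R. These again followed the culture, with the lowest values in the treated libraries of culture 1. Pttg1, the securin that holds back separase until anaphase, behaved otherwise and was at 9.94, 11.9 and 12.3 CPM in WT, 8.09 and 13.1 CPM in WT+P, 12.5 and 13.7 CPM in WT+R, 11, 13.6 and 14.6 CPM in KO, 11.4, 13.2 and 15.2 CPM in KO+P and 16, 14.6 and 18 CPM in KO+R. Its 16 values ran from 8.09 to 18 CPM, and rapamycin libraries were the higher ones in every culture.

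The chromosomal passenger complex corrects faulty attachments of chromosomes to the spindle. Its kinase Aurkb was at 3.22, 18.6 and 3.61 CPM in WT, 0.694 and 10.4 CPM in WT+P, 0.448 and 8.77 CPM in WT+R, 9.26, 21.1 and 12.6 CPM in KO, 1.58, 8.29 and 7.33 CPM in KO+P and 1.69, 8.12 and 6.59 CPM in KO+R. Its subunit survivin, Birc5, was at 2.81, 23.5 and 2.79 CPM in WT, 0.832 and 16.1 CPM in WT+P, 0.761 and 12.5 CPM in WT+R, 9.14, 21.4 and 17.8 CPM in KO, 1.75, 10.3 and 7.28 CPM in KO+P and 1.11, 7.96 and 6.19 CPM in KO+R. Both had their lowest values in treated cells of culture 1. At the kinetochore, Cenpf, a large protein that links it to microtubules, was at 0.92, 10.4 and 1.64 CPM in WT, 0.0925 and 6.11 CPM in WT+P, 0.403 and 4.04 CPM in WT+R, 4.11, 11.5 and 6.04 CPM in KO, 0.458, 3.83 and 3.67 CPM in KO+P and 0.318, 3.94 and 2.67 CPM in KO+R. Nuf2, a subunit of the NDC80 complex that grips microtubules, was at 1.93, 13.4 and 1.72 CPM in WT, 0.462 and 7.69 CPM in WT+P, 0.403 and 4.64 CPM in WT+R, 5.46, 13.8 and 9.15 CPM in KO, 0.333, 4.92 and 5.83 CPM in KO+P and 0.794, 4.43 and 3.16 CPM in KO+R. Spc24, another subunit of that complex, was at 1.2, 10.7 and 1.39 CPM in WT, 0.231 and 5.24 CPM in WT+P, 0.313 and 5.07 CPM in WT+R, 4.34, 9.79 and 7.64 CPM in KO, 0.458, 3.21 and 3.51 CPM in KO+P and 0.688, 4.96 and 3.43 CPM in KO+R. The lowest values of these genes rest on few reads, 8 counts for Nuf2 in KO+P culture 1 and 5 counts for Spc24 in WT+P culture 1.

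Of the motors and spindle proteins, Kif11, the kinesin that pushes spindle poles apart, was at 1.84, 15.1 and 2.5 CPM in WT, 0.555 and 8.48 CPM in WT+P, 0.627 and 7.86 CPM in WT+R, 6, 18 and 11.2 CPM in KO, 0.958, 6.63 and 6.92 CPM in KO+P and 1.27, 7.3 and 4.63 CPM in KO+R. Nusap1, which bundles spindle microtubules near chromosomes, was at 2.58, 17.7 and 3.4 CPM in WT, 0.647 and 10.4 CPM in WT+P, 0.985 and 8.59 CPM in WT+R, 8.75, 23.2 and 16 CPM in KO, 1.04, 6.54 and 8.67 CPM in KO+P and 1.38, 8.73 and 5.84 CPM in KO+R. Hmmr, a spindle pole protein, was at 1.43, 16.8 and 2.21 CPM in WT, 0.694 and 10.4 CPM in WT+P, 0.806 and 7.26 CPM in WT+R, 6.51, 17.2 and 12.3 CPM in KO, 1.21, 7.63 and 8 CPM in KO+P and 1.59, 7.63 and 4.41 CPM in KO+R. For all of them, KO exceeded WT in culture 1 and culture 3 by far more than in culture 2. Gtse1, a microtubule-binding protein of G2 that also restrains p53, was by contrast high in every culture, at 66.2, 117.6 and 109.6 CPM in WT, 27.4 and 99.6 CPM in WT+P, 57.8 and 77.4 CPM in WT+R, 70.8, 101.6 and 96.7 CPM in KO, 16.9, 49.9 and 64.8 CPM in KO+P and 56.5, 52.1 and 54.5 CPM in KO+R. The lowest value of Gtse1 was that of KO+P culture 1, and the untreated groups overlapped fully. Kif2c, a kinesin that takes microtubules apart, was at 0.966, 11.5 and 1.48 CPM in WT, 0.37 and 4.93 CPM in WT+P, 0.537 and 5.93 CPM in WT+R, 3.6, 11.3 and 7.15 CPM in KO, 0.583, 2.96 and 4.6 CPM in KO+P and 0.794, 4.92 and 2.18 CPM in KO+R. Kif4, a chromosome-bound kinesin, was at 2.16, 15.4 and 2.38 CPM in WT, 0.601 and 10.6 CPM in WT+P, 0.313 and 8.64 CPM in WT+R, 5.04, 17.9 and 11.4 CPM in KO, 0.625, 6.38 and 5.73 CPM in KO+P and 0.9, 8.37 and 5.52 CPM in KO+R.

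Prc1, which bundles the microtubules of the central spindle before cytokinesis, was at 5.43, 39.4 and 6.44 CPM in WT, 1.06 and 19.6 CPM in WT+P, 1.3 and 18.3 CPM in WT+R, 15.5, 40.7 and 24.6 CPM in KO, 1.62, 12.3 and 14.9 CPM in KO+P and 2.59, 14.6 and 9.76 CPM in KO+R. Anln, an actin-binding protein of the cleavage furrow, was at 7.18, 73.3 and 12.6 CPM in WT, 12.9 and 62 CPM in WT+P, 5.33 and 42.5 CPM in WT+R, 18.1, 75.9 and 41 CPM in KO, 8.37, 52.3 and 26.4 CPM in KO+P and 4.82, 31.7 and 19.7 CPM in KO+R. Prc1 followed the bulk of the members, whereas Anln was higher in WT+P than in WT in culture 1 and lower in culture 2. Top2a, the topoisomerase that untangles sister chromatids, was at 7.04, 66.8 and 14.7 CPM in WT, 1.8 and 36 CPM in WT+P, 1.83 and 28.6 CPM in WT+R, 26.6, 74.4 and 47.1 CPM in KO, 3.58, 20.7 and 27.6 CPM in KO+P and 4.13, 29 and 18.7 CPM in KO+R. Mki67, the proliferation marker that coats mitotic chromosomes, was at 7.5, 36.4 and 8.24 CPM in WT, 2.4 and 24.1 CPM in WT+P, 3.54 and 15 CPM in WT+R, 16.2, 44 and 27.6 CPM in KO, 1.67, 15.5 and 19.1 CPM in KO+P and 2.54, 17.5 and 14.3 CPM in KO+R. Both had higher values in KO than in WT in all 3 cultures.

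Of the condensin subunits that compact chromosomes, Ncapg was at 2.44, 18.9 and 3.36 CPM in WT, 0.37 and 11.1 CPM in WT+P, 0.224 and 8.12 CPM in WT+R, 5.69, 18.1 and 11.9 CPM in KO, 0.749, 9.17 and 8.88 CPM in KO+P and 1.01, 8.57 and 5.92 CPM in KO+R. Ncapd2 was at 9.94, 26 and 11.9 CPM in WT, 4.81 and 16.1 CPM in WT+P, 7.97 and 17.2 CPM in WT+R, 16.5, 28.2 and 23.8 CPM in KO, 4.91, 9.84 and 13.8 CPM in KO+P and 7.36, 17.9 and 14.4 CPM in KO+R. The core subunit Smc4 was at 22.2, 32.2 and 23.7 CPM in WT, 20.1 and 22.7 CPM in WT+P, 22.3 and 28.7 CPM in WT+R, 23.7, 35.3 and 27.9 CPM in KO, 13.9, 21.5 and 23.9 CPM in KO+P and 21.9, 34.1 and 29.9 CPM in KO+R. Ncapg varied with the culture like the kinases, while Smc4 stayed within a narrow range. Foxm1, the transcription factor that drives many G2/M genes, was at 9.34, 41.1 and 21.4 CPM in WT, 9.06 and 31.8 CPM in WT+P, 5.42 and 18.6 CPM in WT+R, 17.5, 43.1 and 35 CPM in KO, 7.99, 23.8 and 20.9 CPM in KO+P and 6.99, 20.5 and 16.6 CPM in KO+R. The libraries of Foxm1 treated with rapamycin were the lowest of their culture in both genotypes.

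**Figure D3:**
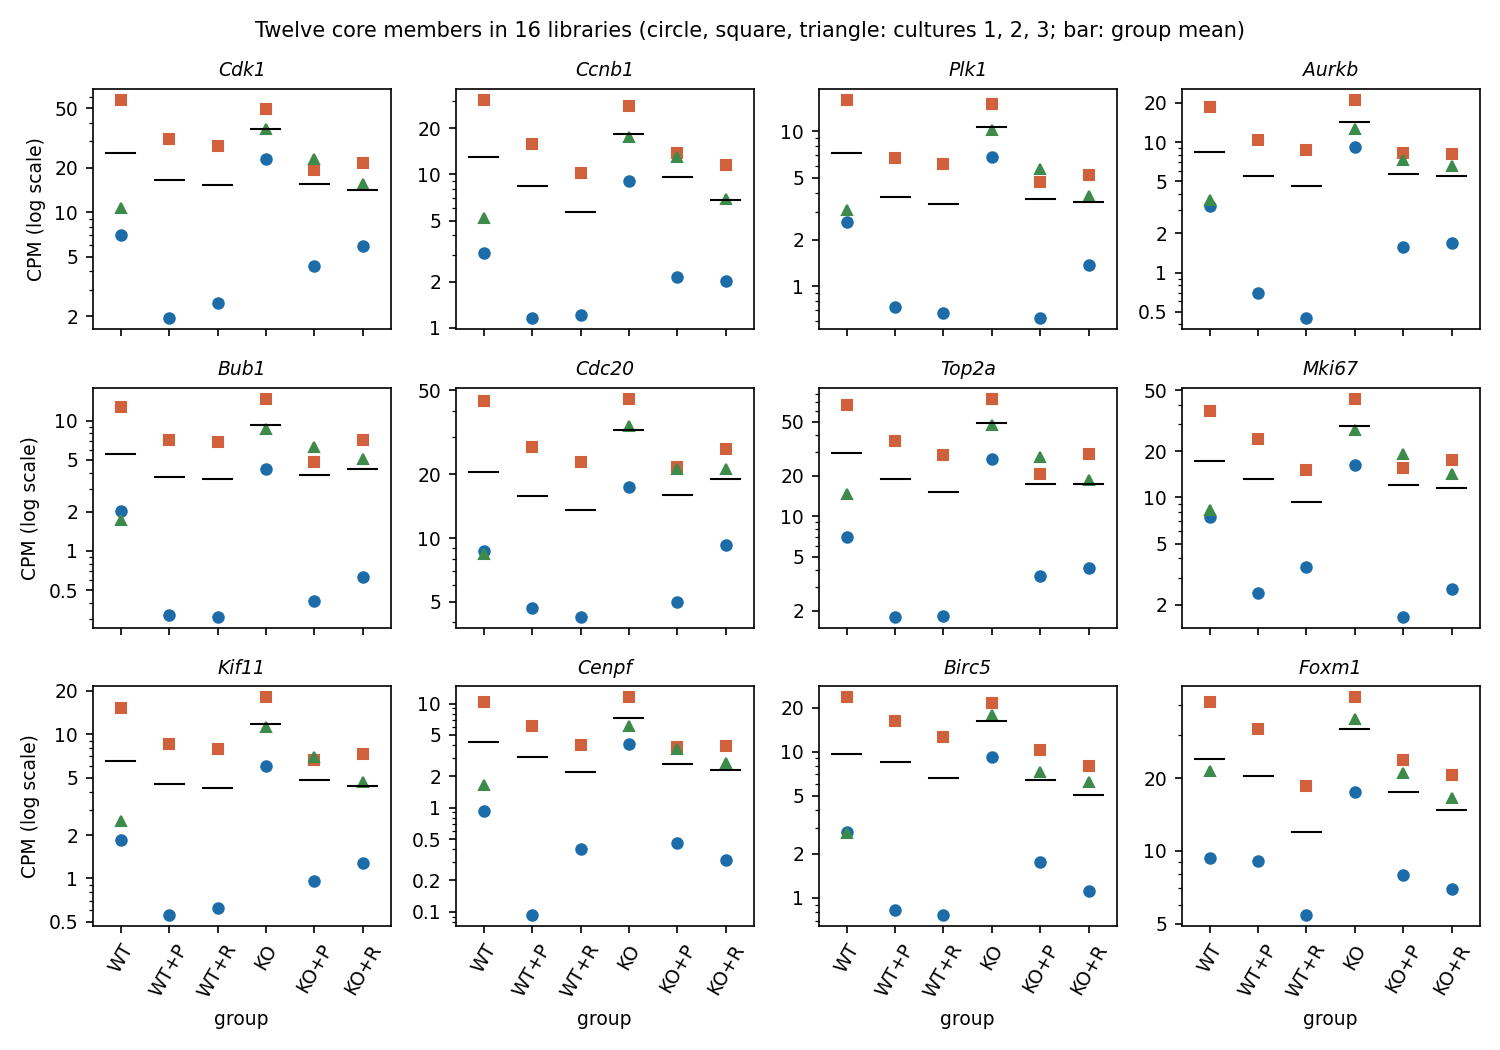
CPM (y axis, log scale) of 12 core members in each library by group (x axis), with the mean of the group as a bar and a marker for each culture. Culture 2 is highest in WT for all 12 genes, and Foxm1 in rapamycin-treated KO lies at 6.99, 20.5 and 16.6 CPM against 17.5, 43.1 and 35.0 CPM in KO.

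The first question was whether cells without Ccm3 held more mitotic transcripts. KO cells had higher levels than WT cells in culture 1, where the median member was higher by 1.20 on the log2 scale and 57 of 57 members were higher, and in culture 3, where the median was 1.77 and 56 members were higher. In culture 2 the median was 0.07, with 38 members higher and 19 lower. A higher level in all 3 cultures was found for 38 of the 57 members, against 21.3% of all genes tested. In edgeR's quasi-likelihood model with the culture as a block, the median log2 fold change of the members was 0.97, or 1.96-fold, against 0.0 over all genes. No member was called, that is, at a Benjamini-Hochberg adjusted p under 0.05 and a fold change above 1.5, against 0.128% of all genes, and the smallest adjusted p of a member in edgeR was 0.131. At an unadjusted p under 0.05, 27 members were higher (7.55% of all genes), and DESeq2 called 2 higher (1.68% of the genes it tested), Anln and Cdca2, which were named after their values were seen. Without the library labelled WT replicate 1 the median was 1.12, also with 0 members called, and it fell to 0.53 without WT replicate 3 and to 0.58 without KO replicate 1. The microglia and macrophage markers summed to 9.72 to 26.1 CPM in KO against 5.25 to 12.9 CPM in WT. Nearly all of each sum came from Cd68, at 9.14, 15.3 and 25.6 CPM in KO and 4.83, 12.0 and 8.08 CPM in WT. The other markers of this list were at most 0.465 CPM in these libraries, and the part of the list in the result was not tested.

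The largest fitted rises were those of Hmmr, 1.44 ± 0.53 (log2, SE, 3 against 3 libraries), Nusap1, 1.41 ± 0.52, and Cenpf, 1.39 ± 0.62, with edgeR adjusted p-values of 0.268, 0.266 and 0.36. Kif11 had a log2 value of 1.31 ± 0.50, Birc5 of 1.35 ± 0.58 and Top2a of 1.30 ± 0.53. Foxm1 had the smallest adjusted p in edgeR, 0.131, at 0.54 ± 0.15. Gtse1 was the only member with a fitted value below 0, at -0.09 ± 0.34. Smc4 and Pttg1 were near 0, at 0.15 ± 0.14 and 0.20 ± 0.14. The members of each role had medians between 0.65, for the transcription factors Foxm1 and Mybl2, and 1.13, for the 8 genes of centromere and kinetochore. None of these single values passed the test.

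The second question was what propranolol did in KO cells. KO+P libraries held less of these transcripts than KO libraries in each culture, with the summed level 3.51 times lower in culture 1, 2.27 times lower in culture 2 and 1.53 times lower in culture 3. The number of members that were lower was 56, 57 and 56 of 57. All 3 cultures showed the decrease for 56 members, against 26.5% of all genes, and Pttg1 was the exception. The fitted median was -1.30 on the log2 scale, that is 2.46-fold lower, against -0.01 over all genes. Only Foxm1 was called lower in edgeR with the block, at -0.91 ± 0.15 and an adjusted p of 0.0477, against 0.0135% of all genes, although 53 members had an unadjusted p under 0.05 (13.1% of all genes) and DESeq2 called 42 (4.10% of the genes it tested). The count rested on KO+P replicate 3, which was the least lowered. Without it edgeR called 44 members (6.02% of all genes), and without any other library of these 2 groups it called 0. Without the replicate block Foxm1 had an adjusted p of 0.608 in edgeR and no member was called.

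Spc24 had the largest fitted decrease with propranolol, at -1.98 ± 0.63, followed by Nusap1 at -1.85 ± 0.53 and Plk1 at -1.85 ± 0.53, and their edgeR adjusted p-values were 0.114, 0.103 and 0.103. Top2a was at -1.84 ± 0.54, Cenpf at -1.83 ± 0.64, Birc5 at -1.68 ± 0.58, Bub1 at -1.62 ± 0.67 and Mki67 at -1.62 ± 0.53 on the same log2 scale. Cdk1 was at -1.49 ± 0.54 and Ccnb1 at -1.15 ± 0.44. The 7 mitotic kinesins had a median of -1.37, and DESeq2 called 7 of 7 lower (4.10% of the genes it tested). All 4 spindle checkpoint genes, with a median of -1.43, were called by DESeq2 as well, Bub1 at an adjusted p that rounds to 0.05. DESeq2 called fewer in other roles, 5 of the 8 cyclins, CDK1 and mitotic kinases and 2 of the 5 genes of anaphase and mitotic exit. Pttg1 was at 0.02 ± 0.14, the only fitted value above 0, and Smc4 at -0.56 ± 0.14. The summed level of the endothelial markers was also lower with propranolol, at 8314 to 11809 CPM in KO+P against 12195 to 13551 CPM in KO. Pecam1, Cdh5, Kdr, Tie1, Tek, Cldn5 and Esam were lower in every culture. Egfl7 was at 1129.1, 890.3 and 1111.0 CPM in KO+P and 1098.4, 875.3 and 1112.8 CPM in KO. Emcn was not lower in culture 2 nor Erg in culture 3, and the part of these markers in the result was not tested.

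Rapamycin in KO cells, compared with the same KO libraries as propranolol, was the comparison with the most calls. KO+R libraries held 2.57, 2.08 and 1.98 times less of the summed transcripts than KO libraries in cultures 1, 2 and 3, and 56, 56 and 55 members were lower. The decrease was present in all 3 cultures for 55 of the 57 members, against 31.2% of all genes, with Pttg1 and Smc4 as the exceptions. The fitted median was -1.49 on the log2 scale, or 2.81-fold lower, against -0.02 over all genes. With the block, edgeR called 11 members lower (2.95% of all genes), which were Ccna2, Aurka, Bub1b, Kif20a, Kif20b, Kif22, Anln, Racgap1, Cdca2, Smc2 and Foxm1. At an unadjusted p under 0.05, 51 members were lower (13.0% of all genes) and 1, Pttg1, was higher. DESeq2 called 44 members lower (4.90% of the genes it tested), and edgeR on KO and KO+R libraries alone called 54 (7.40%). Without the replicate block it called 0 members (0.768% of all genes). The count fell to 1 without KO replicate 1, KO replicate 3 or KO+R replicate 1, to 2 without KO+R replicate 2 or KO+R replicate 3 and to 5 without KO replicate 2. Calls over all genes were not counted for these fits. Some markers of other cell types also moved with rapamycin. The microglia and macrophage markers summed to 3.44 to 8.46 CPM in KO+R against 9.72 to 26.1 CPM in KO, through Cd68, a lysosomal protein of macrophages, which was called lower at -1.55 ± 0.28 with an edgeR adjusted p of 0.0082. Csf1r, a defining receptor of these cells, was called lower too and was at most 0.465 CPM in KO. The rest of the list did not fall in every culture. Ptprc was at 0.0387, 0.417 and 0.0888 CPM in KO and 0.212, 0.082 and 0.134 CPM in KO+R. Aif1 was at 0.0775, 0.114 and 0.0 CPM in KO and 0.106, 0.123 and 0.0 CPM in KO+R. Cx3cr1, P2ry12 and Itgam were at most 0.0759 CPM in both groups. The mural markers summed to 63.7 to 171.5 CPM in KO+R against 32.7 to 60.4 CPM in KO, mostly from Acta2. The part of all these markers in the result was not tested.

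Foxm1 was the member with the smallest adjusted p, at -1.16 ± 0.15 and 0.00159 in edgeR, that is 2.24-fold lower. Its KO+R libraries, at 6.99, 20.5 and 16.6 CPM, were below the KO library of the same culture, at 17.5, 43.1 and 35.0 CPM, each time. Cdca2, which recruits a phosphatase to anaphase chromosomes, went from 5.66, 15.7 and 10.5 CPM in KO to 1.27, 6.89 and 3.61 CPM in KO+R, with a log2 fold change of -1.65 ± 0.37 and an edgeR adjusted p of 0.0216. Kif20b, a kinesin of cytokinesis, went from 3.72, 10.3 and 6.57 CPM in KO to 1.11, 5.25 and 2.67 CPM in KO+R, at -1.30 ± 0.29 and an edgeR adjusted p of 0.0227. The decrease was seen in every culture for both genes, and it was largest in culture 1.

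Anln went from 18.1, 75.9 and 41.0 CPM to 4.82, 31.7 and 19.7 CPM (-1.38 ± 0.31, edgeR adjusted p of 0.0248). Smc2, the partner of Smc4 in condensin, went from 19.9, 48.1 and 35.2 CPM in KO to 11.1, 28.4 and 19.2 CPM in KO+R (-0.83 ± 0.19, edgeR adjusted p of 0.025). Racgap1, a scaffold of the central spindle, went from 14.4, 36.3 and 30.2 CPM in KO to 4.24, 16.6 and 14.5 CPM in KO+R (-1.33 ± 0.33, edgeR adjusted p of 0.0347). The other core subunit of condensin, Smc4, was at -0.02 ± 0.14. Bub1b, a checkpoint kinase relative that restrains Cdc20, went from 7.67, 16.2 and 11.6 CPM in KO to 2.65, 7.59 and 6.19 CPM in KO+R (-1.19 ± 0.32, edgeR adjusted p of 0.0485). Ccna2, cyclin A2, went from 15.6, 42.8 and 29.8 CPM in KO to 2.44, 16.4 and 10.6 CPM in KO+R (-1.89 ± 0.50, edgeR adjusted p of 0.0469).

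The counts of Ccna2, Aurka, Kif20a and Kif22 are less certain, because the libraries do not keep the strand and 17.5%, 38.6%, 61.5% and 18.0% of their exonic bases are shared with other genes. Aurka, the kinase of spindle poles, had a log2 fold change of -1.31 ± 0.33, Kif20a, a kinesin of the central spindle, of -1.69 ± 0.39 and Kif22, a kinesin on chromosome arms, of -1.27 ± 0.34, with edgeR adjusted p-values of 0.0364, 0.0259 and 0.0485. The called members were not those with the largest changes. Ube2c was at -2.27 ± 0.65, Cenpf at -2.11 ± 0.65, Nuf2 at -2.08 ± 0.67 and Birc5 at -2.04 ± 0.60, with wider errors and edgeR adjusted p-values of 0.0614, 0.0789, 0.0902 and 0.0661. Ccnb1, at -1.66 ± 0.45, lay just outside with an edgeR adjusted p of 0.0514. Pttg1 was at 0.32 ± 0.14, with an adjusted p of 0.182 in edgeR. In all, 34 of the 57 members had an adjusted p under 0.1 in edgeR, and the share of all genes at this cut was not counted.

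**Figure D4:**
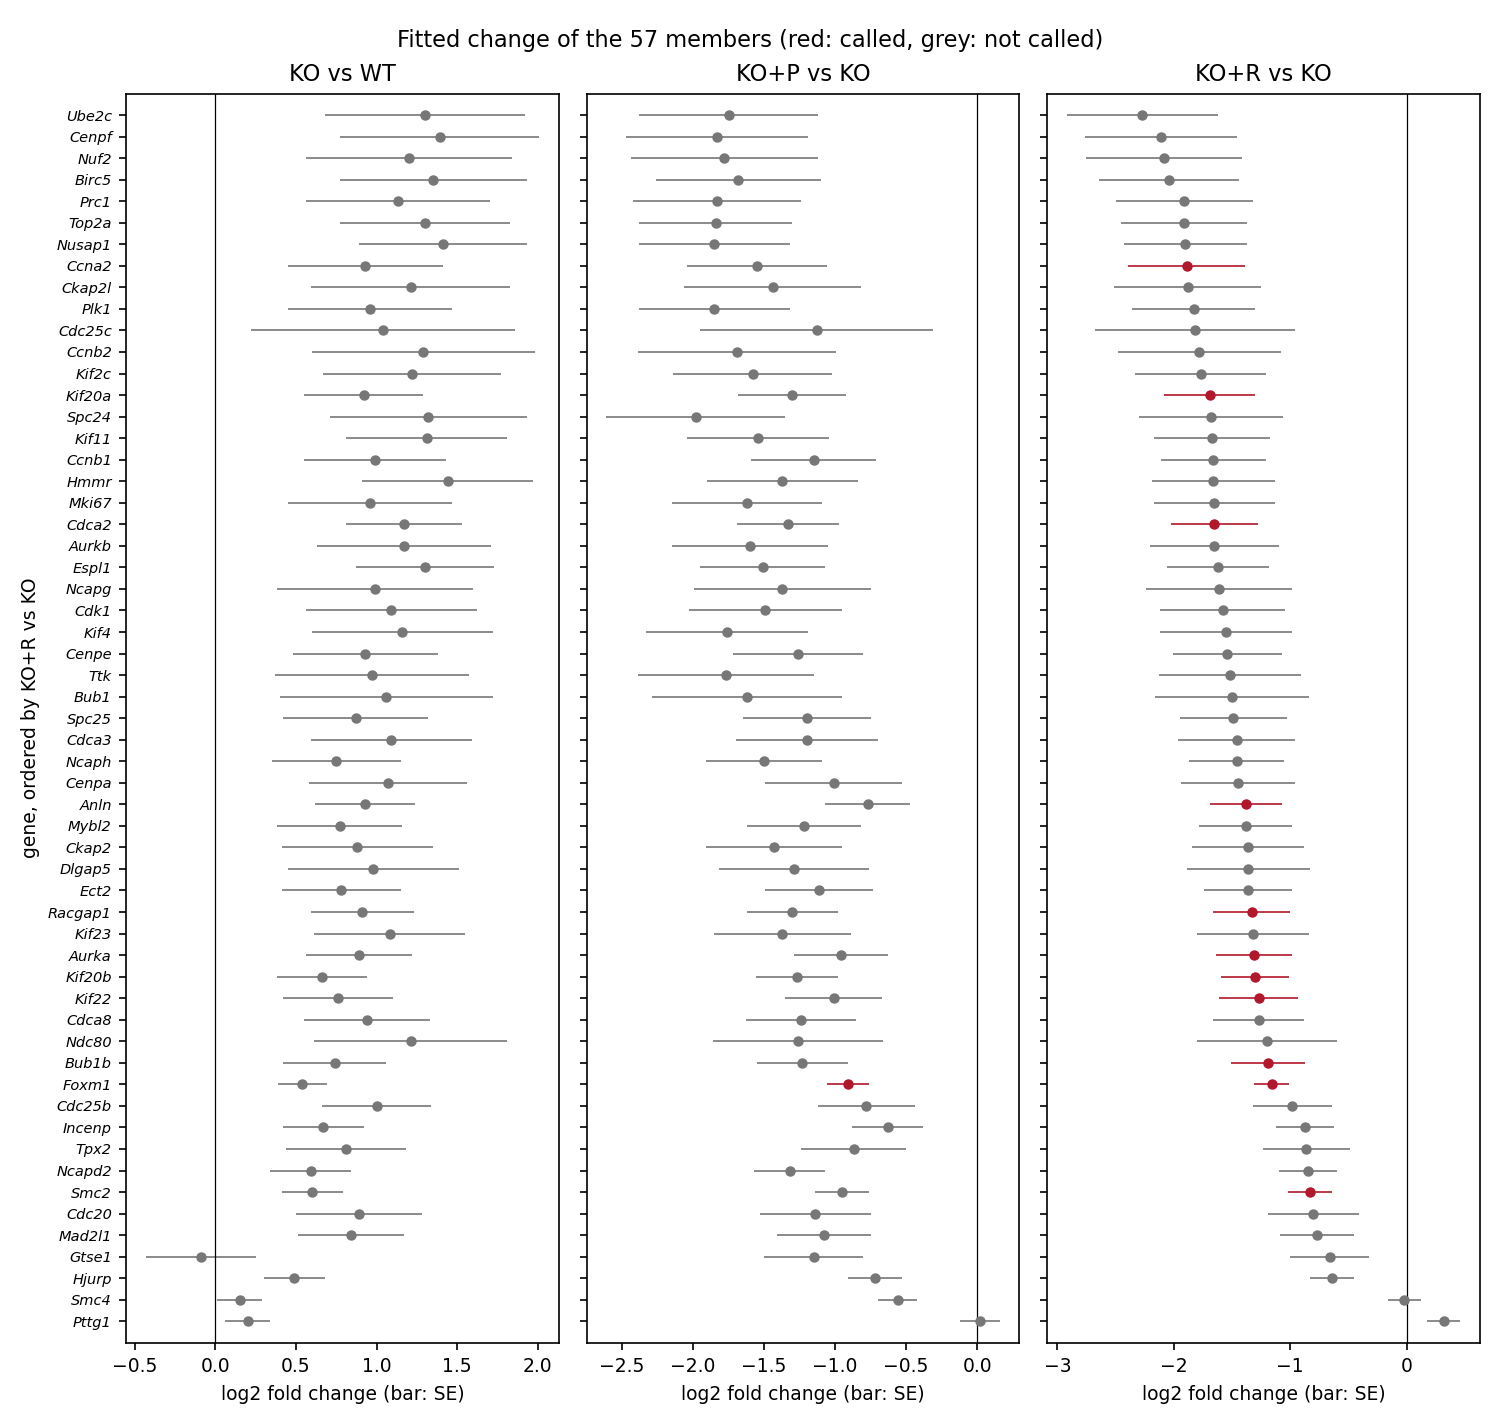
Log2 fold change of each member (x axis) with its standard error as a bar for KO vs WT, KO+P vs KO and KO+R vs KO, genes ordered by the last (y axis), called members in red. Values lie above 0 for 56 genes in KO vs WT and below 0 for 56 genes with either drug, and the red points are Foxm1 with propranolol and 11 genes with rapamycin.

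WT cells were treated in 2 cultures only, and both drugs were compared with the same WT libraries. With propranolol, the summed level was 1.88 times lower in culture 1 and 1.56 times lower in culture 2, and 56 members were lower in each. Both cultures showed it for 55 members, against 31.2% of all genes. The median member difference was -1.25 within culture 1 and -0.70 within culture 2. The fit, which also uses WT replicate 3 without a treated partner, gave a median of -0.62. It had 0 members called by edgeR (0.0% of all genes) or by DESeq2 (0.108%), and 1 member had an unadjusted p under 0.05 in edgeR (4.44%). Plk1 was at -1.06 ± 0.60, Prc1 at -1.02 ± 0.67 and Aurkb at -0.93 ± 0.64, with edgeR adjusted p-values of 0.43, 0.48 and 0.499. Anln at 0.51 ± 0.34 and Cdc25b at 0.06 ± 0.39 were the 2 fitted values above 0. Leaving out 1 library moved the median between -1.30, without WT+P replicate 2, and -0.17, without WT replicate 2, and it was -0.50 without the library labelled WT replicate 1. The endothelial markers summed to 7762 and 11472 CPM in WT+P against 11914 to 15780 CPM in WT. In culture 2, Pecam1, Erg, Emcn and Egfl7 were at or slightly above their level in WT. The part of the endothelial markers in the result was not tested.

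With rapamycin in WT cells, the summed level was 1.73 times lower in culture 1 and 1.94 times lower in culture 2, with 55 and 56 members lower. Both cultures showed it for 55 members (37.7% of all genes). The median member difference was -1.41 within culture 1 and -1.04 within culture 2, and the fitted median, with WT replicate 3 included, was -0.86. Foxm1 was the 1 member called by edgeR (2.37% of all genes), at -0.90 ± 0.18 and an adjusted p of 0.0143, which was 0.696 without the replicate block. It went from 9.34 and 41.1 CPM to 5.42 and 18.6 CPM in cultures 1 and 2. At an unadjusted p under 0.05, 8 members were lower (10.3%), DESeq2 called 2 (3.75%), Foxm1 and Kif22, the latter named after its values were seen, and edgeR on WT and WT+R libraries alone called 39 (5.87%). The edgeR count was 0 without WT replicate 2, WT+R replicate 1 or WT+R replicate 2, and 4 without WT replicate 3, and it stayed at 1, with a median of -0.70, without the library labelled WT replicate 1. Calls over all genes were not counted for these fits. Ube2c was at -1.50 ± 0.74, Ncapg at -1.36 ± 0.74 and Nuf2 at -1.30 ± 0.77. Pttg1 at 0.29 ± 0.15 and Smc4 at 0.01 ± 0.16 were the fitted values above 0, the latter turning to -0.03 without the block. The mural markers summed to 564.1 and 625.0 CPM in WT+R against 39.7 to 178.1 CPM in WT, through Acta2. The endothelial markers summed to 10228 and 11047 CPM in WT+R against 11914 to 15780 CPM in WT, but single ones moved in opposite directions. Egfl7 was called lower (-0.70 ± 0.13, edgeR adjusted p of 0.0114) and Emcn higher (0.85 ± 0.18, edgeR adjusted p of 0.0175). The macrophage marker Cd68 was called lower, at -1.39 ± 0.34 with an edgeR adjusted p of 0.0378. The part of these markers in the result was not tested.

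**Figure D5:**
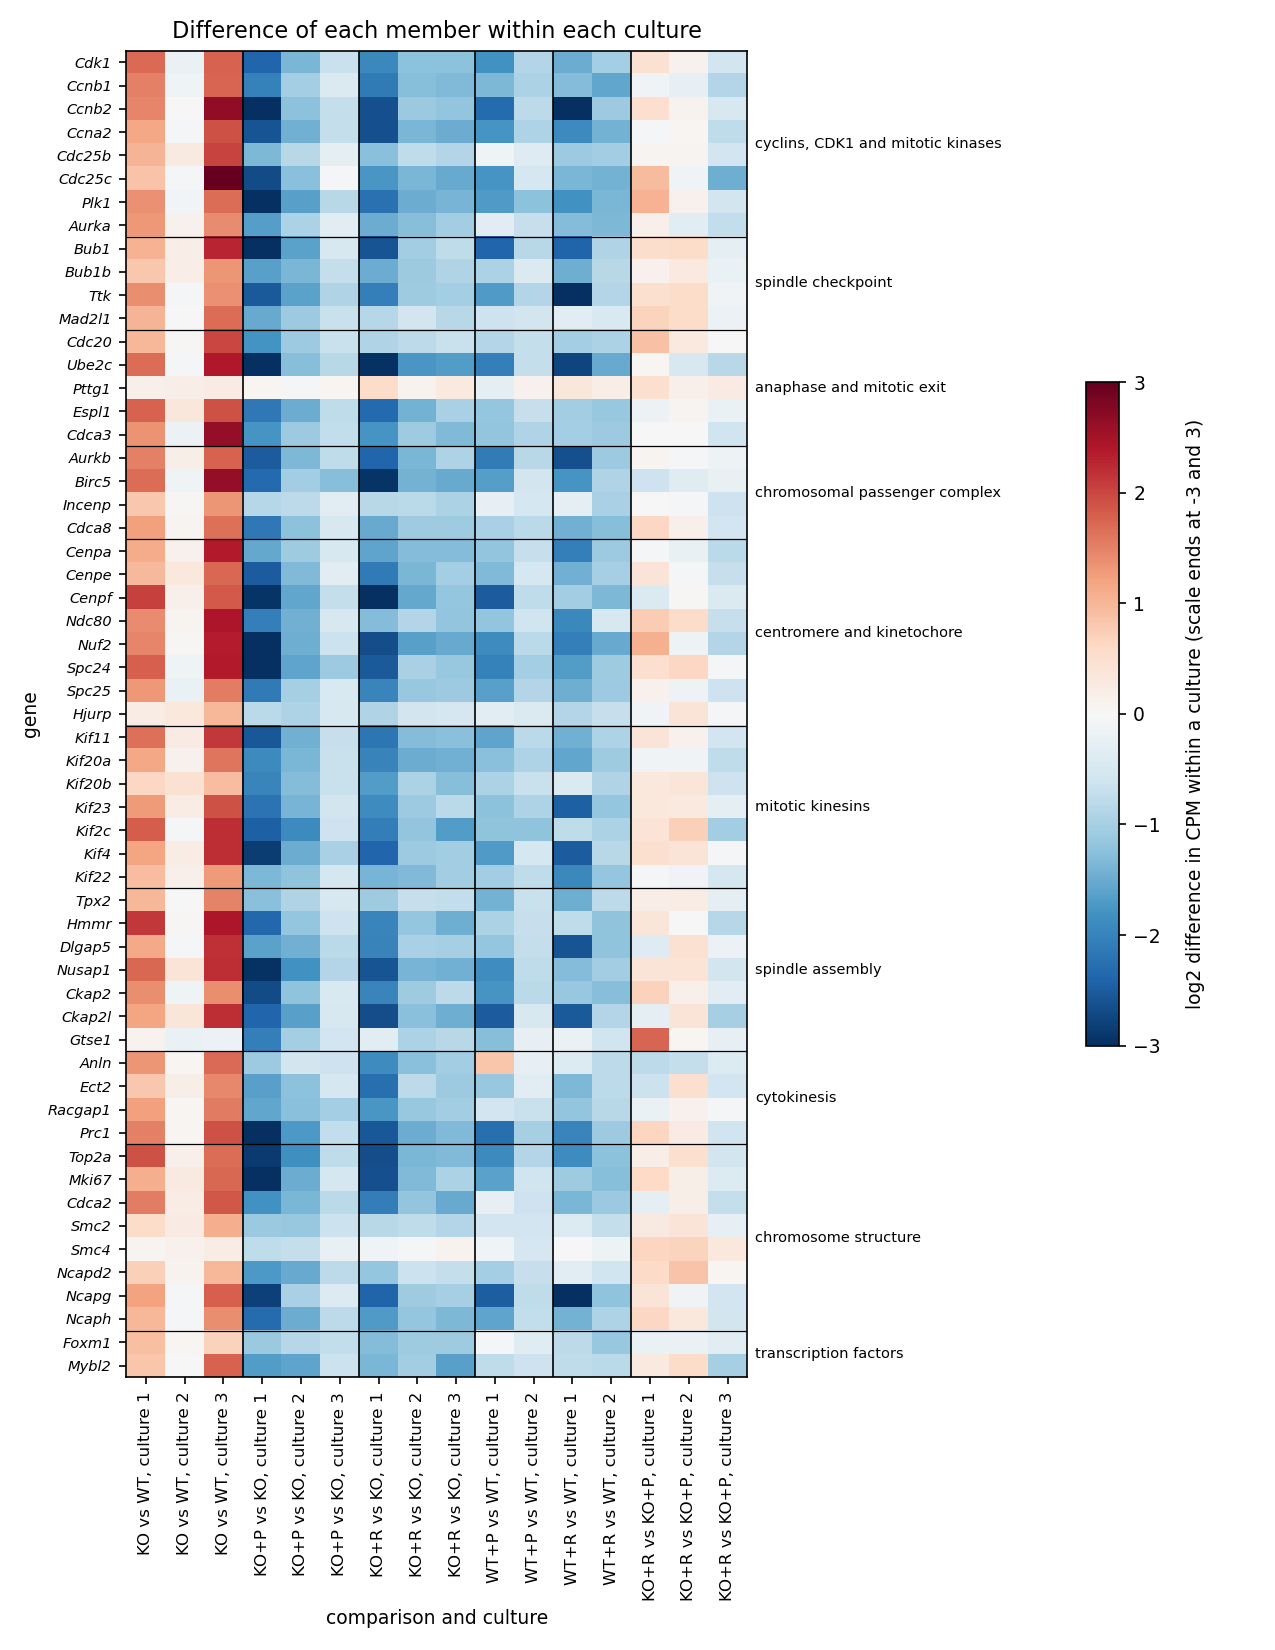
Log2 difference in CPM of each member (y axis, grouped by role) within each culture for 6 comparisons (x axis), red for higher and blue for lower. The columns of either drug against untreated cells are blue in every culture except for Pttg1, Smc4 with rapamycin and single values such as Anln in WT+P, and KO vs WT is near 0 in culture 2.

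The 2 drugs were also set against each other in KO cells, and no member differed past both thresholds. The median of KO+R vs KO+P was -0.09, and it ran from -0.69 for Cdc25c to 0.54 for Smc4. In cultures 1 and 2 the median member was higher with rapamycin, by 0.32 and 0.15, and in culture 3 it was lower, at -0.56. Only 7 members were lower in all 3 cultures, against 29.0% of all genes. edgeR called 0 members (5.55% of all genes were called lower), DESeq2 also 0 (6.56%), and 0 members had an unadjusted p under 0.05 in the lower direction (16.6%), against 2 in the higher (14.6%). Smc4 was at 13.9, 21.5 and 23.9 CPM in KO+P and at 21.9, 34.1 and 29.9 CPM in KO+R, higher with rapamycin in each culture, with a log2 difference of 0.54 ± 0.14 and an edgeR adjusted p of 0.025 at a fold of 1.45, under the threshold of 1.5. Gtse1 was at 0.50 ± 0.35 and Ncapd2 at 0.46 ± 0.25, while Anln was at -0.62 ± 0.31 and Ube2c at -0.52 ± 0.63. The median standard error of a member was 0.48. Without KO+P replicate 3 the median turned to 0.45. Of the microglia and macrophage markers, Cd68 was called lower with rapamycin here as well, at -1.77 ± 0.29 and an edgeR adjusted p of 0.00305. Csf1r, which was near 0 CPM, was also called lower. Of the endothelial markers, Kdr at 2.00 ± 0.50 and Tie1 at 0.68 ± 0.16 were called higher (edgeR adjusted p-values of 0.0246 and 0.0162). The part of these markers in the result was not tested.

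Whether the drugs acted differently in KO and in WT cells was tested as an interaction, and no member passed. In the fit, the decrease with propranolol was larger in KO by a median of 0.74 on the log2 scale (-0.74), and that with rapamycin by 0.62 (-0.62). The fit includes WT replicate 3, which has no treated WT partner. Within cultures 1 and 2 the median member difference with propranolol was -2.14 and -1.31 in KO and -1.25 and -0.70 in WT. With rapamycin it was -1.98 and -1.13 in KO and -1.41 and -1.04 in WT, so the genotypes were close in culture 2. Without the library labelled WT replicate 1 the interaction medians were -0.91 and -0.75. They were near 0 without the treated WT library of culture 2, at -0.04 without WT+P replicate 2 and -0.06 without WT+R replicate 2. With KO replicate 1 left out they were -0.40 and -0.17, and over all such fits the lowest were -1.17 and -0.97. The adjusted p was 1.0 for every member in edgeR, 0.0% of all genes were called in either interaction, and 2 and 0 members had an unadjusted p under 0.05 in that direction (1.58% and 1.05% of all genes). Anln had the largest value for propranolol, -1.27 ± 0.46, followed by Kif4, -1.21 ± 0.85, and Birc5, -1.20 ± 0.86. For rapamycin they were Birc5, -1.27 ± 0.88, Kif2c, -1.24 ± 0.84, and Cenpf, -1.17 ± 0.98. Pttg1 was the only member above 0, at 0.06 ± 0.21 and 0.03 ± 0.21. The standard errors, 0.72 and 0.73 at the median, were as large as the median differences. Treated cells of both genotypes can also be set side by side. In culture 1, KO+P held 1.04 times the summed level of WT+P and in culture 2 0.71 times, and KO+R held 1.30 and 0.97 times that of WT+R.

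Members with and without TTTGAA had medians close to each other. With rapamycin in KO, the 34 members with TTTGAA had a median log2 fold change of -1.47 and the 12 without it of -1.48. With propranolol the medians were -1.37 and -1.24, and in KO vs WT they were 0.98 and 0.96. The 11 members with no promoter in the table had medians of -1.65, -1.29 and 0.93. Pttg1 was among the 12 without TTTGAA, and so were Birc5, Nuf2, Nusap1, Ncaph and Ccnb1, which had log2 values of -2.04, -2.08, -1.90, -1.46 and -1.66 with rapamycin in KO. Bub1 and Cdc25b were among the 12 as well, although their windows hold the variant TTCGAA. These classes share their cultures and differ in number, and no test was made between them.

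Other cell cycle genes were counted for comparison. Of 38 genes of S phase and DNA replication, edgeR called 14 lower in KO+R vs KO, against 2.95% of all genes, with a median of -0.89, among them the thymidine kinase Tk1 at -2.04 ± 0.55 and the primase subunit Prim1 at -1.53 ± 0.29. None were called with propranolol in KO, where the median was -0.99 and DESeq2 called 28 (4.10% of the genes it tested). Of 55 further mitotic genes, 12 were called lower in KO+R vs KO, against the same 2.95%, with a median of -1.25, including the kinetochore scaffold Knl1 at -2.38 ± 0.61. The kinesin Kif14 was called in 4 comparisons, but its counts were at or near 0 in 10 of the 16 libraries, untreated WT culture 2 at 0.0374 CPM among them against 3.39 and 3.48 CPM in its treated partners, so no fold is given. The 16 core subunits of the APC/C, which are present throughout the cycle, had medians between -0.06 and -0.02 in all comparisons of groups and 0 calls in edgeR and DESeq2.

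Regulators of the program were counted in the same way. Of 21 DREAM, MuvB, E2F and NF-Y factors, 1 was called higher and 1 lower with rapamycin in each genotype, while of all genes 1.88% were called higher and 2.95% lower in KO, and 2.16% and 2.37% in WT. Rb1, the retinoblastoma protein, which holds back the entry into S phase, went from 24.4, 26.9 and 27.5 CPM in KO to 38.0, 52.8 and 49.0 CPM in KO+R (log2 fold change 0.82 ± 0.10, edgeR adjusted p of 0.0014), and it was at 0.74 ± 0.12 in WT (edgeR adjusted p of 0.00495). The KO+R libraries were above all KO libraries. E2f2, an activator of S phase genes, was at -1.66 ± 0.41 in KO and -1.95 ± 0.50 in WT, with edgeR adjusted p-values of 0.0318 and 0.043. Of 13 G1 cyclins and CDK inhibitors, the inhibitor Cdkn1b (p27) was called higher in KO+R vs KO, from 24.3, 19.9 and 21.3 CPM to 34.0, 32.3 and 36.0 CPM (0.65 ± 0.17, edgeR adjusted p of 0.0429). Cdkn1b was also above KO in every culture with propranolol, at 45.0, 30.7 and 30.4 CPM in KO+P, and edgeR did not call it between the drugs. Cyclin D2, Ccnd2, was called lower in WT+R vs WT (-0.70 ± 0.15, edgeR adjusted p of 0.0212). With propranolol 0 genes of these lists were called by edgeR, while DESeq2 called 4 factors and 1 G1 gene lower (4.10% of the genes it tested) and 2 G1 genes higher (3.36%) in KO. Between the drugs in KO, edgeR called 2 of the 21 factors higher with rapamycin (3.91% of all genes) and 1 lower (5.55%). The higher ones were Rb1, by 0.97 ± 0.11, and Tfdp2, an E2F partner, by 0.70 ± 0.21 (edgeR adjusted p-values of 0.000359 and 0.0469).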

How the data were processed

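PolyA RNA of 16 mBMEC libraries was sequenced, and the sample labels gave each library its group and replicate number. The files deposited by the authors hold Salmon output per transcript, with expected counts, which are not normalized, and TPM values, which the authors' tool scaled for length and depth. The submitters' processing notes name Salmon 1.5.2, Trim Galore 0.6.7, HTSeq 0.13.5, DESeq2 1.34.0 and R 4.2.2 with the build GRCm39. The study's methods describe STAR and HTSeq, and the Salmon index is not given in the sources used here. Both units were summed to genes with GENCODE vM39 of GRCm39, which named 139544 of 140789 transcripts (99.12%), and count sums were rounded to whole numbers. No column was left unused (0 columns). filterByExpr kept 14838 of 27228 genes with any count, and TMM factors ranged from 0.934 to 1.041.

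All groups entered 1 quasi-likelihood model of edgeR 4.0.16 (R 4.3.3) with the replicate number as a block (8 residual degrees of freedom). The pairing was read from the data: same-numbered libraries deviated from their group means with correlations of 0.19 to 0.62 (KO and WT), 0.31 to 0.58 (KO+P and KO), 0.41 to 0.62 (KO+R and KO), 0.33 to 0.55 (KO+R and KO+P), 0.49 to 0.56 (WT+P and WT) and 0.60 to 0.69 (WT+R and WT). The weakest values were in KO+P and WT (0.03 to 0.54) and in KO+R and WT (0.15 to 0.54). Over all pairs of groups, same-numbered libraries had a median of 0.52 (0.03 to 0.69). Libraries with different numbers had a median of -0.23 (-0.69 to 0.40), so the ranges overlapped. The sample labels give the replicate number and do not state a pairing. The biological coefficient of variation was 19% with the block and 32.3% without it, and depth as a limit was not tested. A gene was called at an adjusted p (Benjamini-Hochberg) under 0.05 with a fold change above 1.5, and an interaction at the adjusted p alone. Standard errors were derived from the log2 fold change and its F statistic, and log2 levels used a prior count of 2. The fit was tested on simulated counts.

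Alternatives were DESeq2 1.42.0 with the block, its size factors in edgeR, no replicate block, no filter, the compared groups alone, no fold threshold, and leaving out each library. The members and lists were chosen with earlier results of these data known. All members may be named, with values in every library for 12 core members and for the 3 largest rises and falls of a comparison, and at most 2 called genes per list and comparison. Figures were drawn with matplotlib 3.10.9.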

Additional observations from a re-analysis of the deposited data

How the results depend on the processing

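The directions of the member medians held under all alternatives in the 5 comparisons with untreated cells, and the number of calls did not. Shares of all genes called in the same fit and direction are in brackets, and where none is given they were not counted. For KO vs WT, DESeq2 called 2 members higher (1.68%). For KO+P vs KO, the count of 1 lower member became 0 with no replicate block, 42 with DESeq2 (4.10%) and 3 with no filter on low counts. It was 0 with only the compared groups, and leaving out 1 library gave 0 to 44 (6.02% at 44). For KO+R vs KO, the count of 11 became 0 with no replicate block (0.768%), 44 with DESeq2 (4.90%) and 5 with no filter on low counts. It was 54 with only the compared groups (7.40%), and leaving out 1 library gave 1 to 5. For WT+R vs WT, the count of 1 became 0 with no replicate block, 2 with DESeq2 (3.75%) and 39 with only the compared groups (5.87%). It was 0 to 4 on leaving out 1 library. With only the compared groups, the member medians moved to -1.04 in WT+P vs WT and to -1.20 in WT+R vs WT, and on leaving out 1 library they ran from -1.30 to -0.17 and from -1.36 to -0.48. For KO+R vs KO+P, only the compared groups gave 1 member lower, no fold threshold 1 higher, and leaving out 1 library gave 0 to 2 higher and medians from -0.40 to 0.45. The causes were not tested.

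Single members near 0 changed sign. Smc4 in WT+R vs WT was at -0.03 with no replicate block and -0.08 with only the compared groups, and Cdc25b in WT+P vs WT at -0.27 with only the compared groups. On leaving out 1 library, values ran from -0.23 to 0.00 for Gtse1 in KO vs WT, from -0.01 to 0.04 for Pttg1 in KO+P vs KO, from -0.28 to 0.49 for Cdc25b in WT+P vs WT, from -0.07 to 0.08 for Smc4 in WT+R vs WT, from -1.20 to 0.62 for Cdc25c and from -0.85 to 0.20 for Ube2c in KO+R vs KO+P, and from -0.19 to 0.35 and from -0.08 to 0.17 for Pttg1 in the interactions with propranolol and rapamycin. DESeq2's size factors in edgeR left 9 members called in KO+R vs KO, without Bub1b and Kif22 (adjusted p of 0.0501 and 0.05 in edgeR), and changed no other call of the members. Foxm1 kept its direction under all alternatives, and in KO+R vs KO it lost its call only with no replicate block (adjusted p of 0.567 in edgeR). Depth was not varied.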
